A study of Mus musculus with 9 samples.

Results

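The beaded filament and the spectrin-actin membrane skeleton of the lens were followed here through 9 genes, *Bfsp1*, *Bfsp2*, *Vim*, *Sptan1*, *Sptbn1*, *Ank2*, *Tmod1*, *Ezr* and *Actn2*. They were taken by gene symbol, each with 1 entry, from a table of 22013 transcript-level entries of mouse lens RNA-seq. The table covers 9 libraries of lenses at E16.5, that is, at a late embryonic stage, 3 from each of 3 genotypes, and each library is a separate pool of 8 lenses. Control lenses were *Mafg*+/-:*Mafk*+/-, compound KO lenses were *Mafg*-/-:*Mafk*+/-, and double KO lenses were *Mafg*-/-:*Mafk*-/-. All 3 genotypes carry germline knockout alleles of both small Maf transcription factors, on an ICR background per the study's methods, so the controls are heterozygous and no wild-type lens was included here. The comparisons ask which transcripts differ once *Mafg* is lost, and once *Mafk* is lost as well.

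Lens fiber cells are long cells that fill the lens, and they are held in shape by a skeleton beneath their membrane. The beaded filament is an intermediate filament found in the lens alone, built from filensin (*Bfsp1*) and phakinin, also called CP49 (*Bfsp2*), while vimentin (*Vim*) forms the ordinary intermediate filament of the same cells. Alpha-spectrin and beta-spectrin form tetramers that are joined by short actin filaments into a lattice, in which ankyrin ties spectrin to membrane proteins, tropomodulin caps the slow-growing actin ends, ezrin links actin to the membrane and alpha-actinin crosslinks actin.

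The values are the authors' normalized CPM, that is, the reads of an entry relative to the size of its library, with 1 composition factor for each library. The number of reads behind a value is unknown, so precision is given by the spread between libraries. Positions are on GRCm39. *Bfsp1* lies at chr2:143668448-143705093 on the minus strand, *Bfsp2* at chr9:103302120-103357619 on the minus strand and *Vim* at chr2:13578738-13587639 on the plus strand. The spectrin genes *Sptan1* and *Sptbn1* lie at chr2:29855328-29921463 on the plus strand and chr11:30049394-30218191 on the minus strand. *Ank2* occupies chr3:126715261-127292999 and *Ezr* chr17:7005440-7050611, both on the minus strand. *Tmod1* is at chr4:46038541-46116036 on the plus strand and *Actn2* at chr13:12281303-12356693 on the minus strand. Each entry stands for a transcript of its gene, and which of the annotated transcripts it is cannot be read from the table.

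The promoters of *Bfsp1* and *Actn2* are shown because these were the members furthest below control in both knockouts, and because small Mafs bind DNA with partner proteins at elements that contain the letters searched here. Both runs are the 250 bases upstream of the start site, 5′ to 3′ on the minus strand of the gene, from RefSeq on GRCm38.p6, at chr2:143863174-143863423 for *Bfsp1* and chr13:12340733-12340982 for *Actn2*. Capitals mark the matched letters.
Bfsp1: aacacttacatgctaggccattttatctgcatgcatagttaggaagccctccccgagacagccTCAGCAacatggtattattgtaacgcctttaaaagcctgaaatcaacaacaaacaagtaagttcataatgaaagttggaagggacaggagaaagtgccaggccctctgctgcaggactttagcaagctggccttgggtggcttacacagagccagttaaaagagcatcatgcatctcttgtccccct
Actn2: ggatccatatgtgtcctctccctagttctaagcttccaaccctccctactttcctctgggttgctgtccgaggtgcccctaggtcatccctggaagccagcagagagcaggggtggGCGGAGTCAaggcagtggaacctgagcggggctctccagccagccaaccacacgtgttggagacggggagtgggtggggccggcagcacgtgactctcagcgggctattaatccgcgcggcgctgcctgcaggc
The capitals in *Bfsp1* are the opposite strand of TGCTGA, an arm of the Maf recognition element, and start 187 bases before the start site. Those in *Actn2* are the opposite strand of TGACNNNGC, the core of the antioxidant response element, and start 134 bases before it. Promoter windows of 300 bases, 250 before and 50 after the start, were found for 9 of the 9 members, 13 windows in all, and were searched on both strands for TGACNNNGC, TGCTGA and TGANTCA, the AP-1 core. TGANTCA and TGACNNNGC share the start TGA, which is also the end of TGCTGA. Among all 32851 windows, 12.4% held TGACNNNGC, 19.5% held TGCTGA and 7.81% held TGANTCA, and each was in 2 of the 13 member windows. The other matches were TGACCGTGC in 1 window of *Sptbn1*, TGCTGA in 1 window of *Ank2*, TGATTCA in *Bfsp2* and TGACTCA in *Ezr*. A match describes the letters in the window and is not evidence of binding.

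*Mafg* and *Mafk* were checked against the labels first. *Mafg* was 112.9, 120.7 and 134.5 normalized CPM in control libraries, 10.1, 21.0 and 24.1 in compound KO and 24.6, 21.2 and 26.2 in double KO. *Mafk* was 5.2, 6.3 and 5.6 in control, 4.3, 5.3 and 4.8 in compound KO and 0.6, 0.0 and 0.3 in double KO libraries. Both genes therefore followed the labelled genotypes. Compound KO replicate 1 stood apart from the other libraries. Its mean distance to its own group over log2 values was 112, against 72.9 to 97.5 in the other 8, and its table total was the lowest, at 728036 of a range up to 1131184. Summed markers of lens fiber cells, with 9 of 11 listed genes found, were 37711 in that library, against 74803 to 122175 in the rest. The sum of 74803, in double KO replicate 1, went with a low value of 1 marker. *Cryba1* was 29248 there, 20196 in compound KO replicate 1 and 51886 to 61906 in the remaining libraries. Markers of periocular mesenchyme and fibroblasts (8 of 8 found) summed to 2281 in compound KO replicate 1 and to 175.5 to 358.2 elsewhere. *Pdgfra*, at 156.3 to 172.2, made up most of the control sums. *Col1a1* was 4.0 to 9.6 in control, 1173.6, 37.6 and 13.9 in compound KO and 59.6, 5.9 and 31.0 in double KO. *Col3a1* was 4.7 to 18.2 in control, 660.5, 40.3 and 18.8 in compound KO and 57.7, 5.2 and 53.6 in double KO. Neural retina markers (5 of 6 found) summed to 902 in compound KO replicate 1 and to 21.1 to 214.6 elsewhere. Skeletal muscle markers (14 of 16 found) summed to 10 to 11.8 in control, to 471.1, 54.6 and 31.3 in compound KO, and to 42.8 to 121.1 in double KO. Erythroid markers (7 of 9 found) summed to 1170 to 1639 in control, 1425 to 2832 in compound KO and 2335 to 3867 in double KO libraries. Markers of retinal pigment epithelium (4 of 5 found) summed to 675.4 in compound KO replicate 1 and to 3.3 to 31.9 elsewhere, those of endothelium (5 of 5) to 119.6 and 42.1 to 52.0, and those of macrophages (5 of 5) to 22.3 and 5.4 to 15.3. No marker was at 0 in every library of a group, and 10 of the 14 muscle markers were under 1 in every control library. Epithelial markers (6 of 6 found) summed to 1346 to 1464 in control, 1072 to 1451 in compound KO and 1439 to 1553 in double KO. This sum mixed directions. Its largest part, *Slc2a1*, was 691.8 to 708.8 in control and 792.5 to 926.2 in double KO. *Cdh1* was 228.2 to 239.2 in control and lower in double KO, at 167.4 to 185.5. The remaining epithelial markers overlapped between control and double KO. The part of these cell types in any result below was not tested, and in a bulk library fewer cells of a type cannot be told apart from less RNA per cell. The members' log2 differences, ratios and counts in compound KO lenses are given with and without replicate 1.

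**Figure D1:**
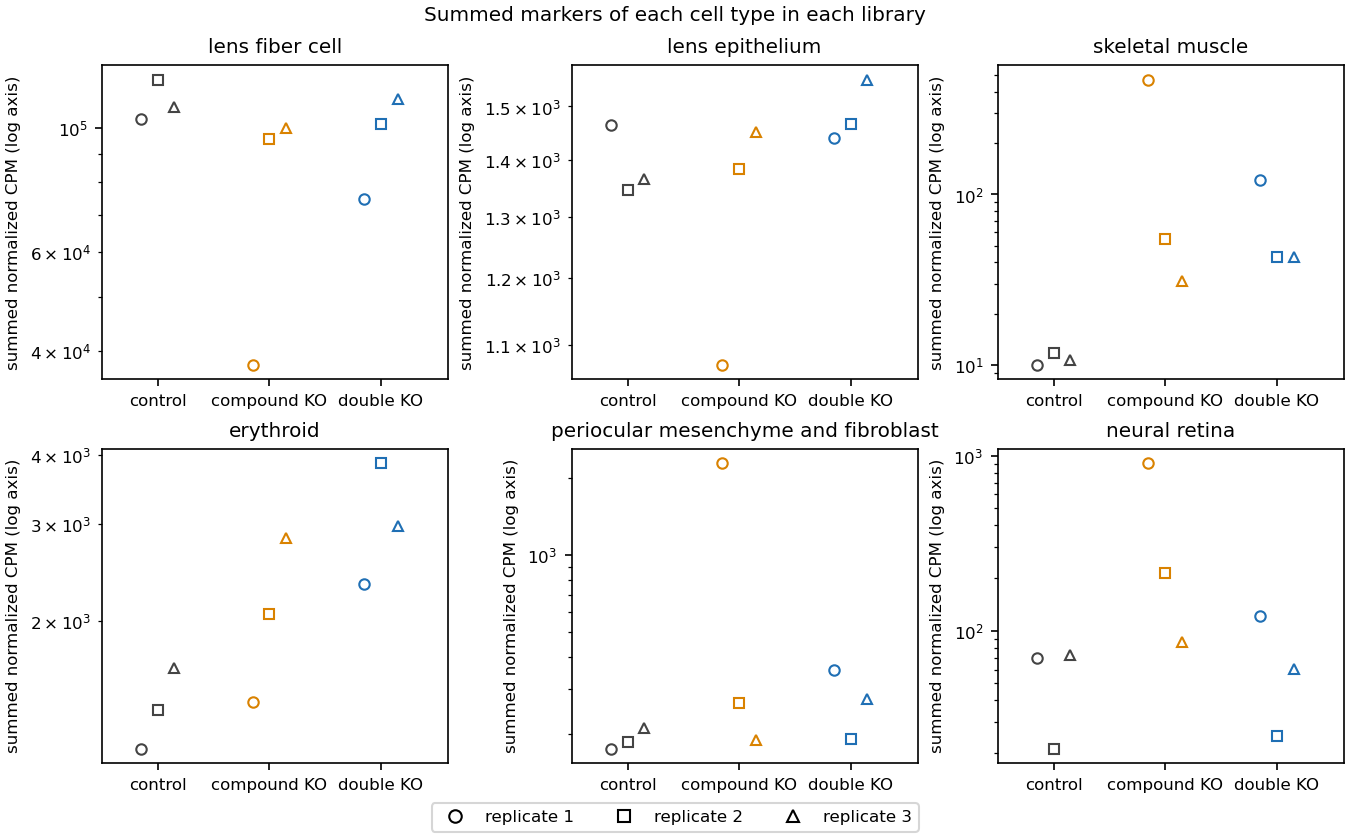
Summed normalized CPM of the markers of 6 cell types in each library, on log axes that do not start at 0, by genotype (x axis), with 1 symbol per replicate. Compound KO replicate 1 has the lowest fiber cell sum, 37711, and the highest muscle, mesenchyme and retina sums, and every knockout library lies above the control libraries for muscle.

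No member passed an adjusted p of 0.05 with a 1.5-fold change in any of the 3 comparisons. The test was limma on log2 of the value plus 1, adjusted by Benjamini-Hochberg over all genes tested. In double KO against control lenses 51 of 14122 genes passed (0.361%), in compound KO against control 0 of 14348 (0%), and in double KO against compound KO 2 of 14402 (0.0139%). By a looser rule, 1.5-fold with limma's p of at most 0.05 left unadjusted, *Bfsp1* and *Actn2* passed in double KO against control, where 2.83% of all genes did, and again in compound KO against control, where 5.34% did. The *Bfsp1* pass in compound KO lenses was lost without control replicate 2 (unadjusted p = 0.0608 in limma), which left 1 member, and *Vim* passed as the third member without compound KO replicate 3 (unadjusted p = 0.0320 in limma). None of the 9 did in double KO against compound KO, where 3.06% of genes did. Since the same 3 control libraries serve both knockouts, the 2 comparisons with control are not independent of each other. The members were also chosen with earlier results of these data known. Their counts beside the shares of all genes, here and below, are therefore a description.

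Counting members whose libraries did not overlap with those of the other group, 4 of 9 lay below control in double KO lenses (*Bfsp1*, *Actn2*, *Sptbn1* and *Vim*) and none above, beside 8.04% and 7.78% of all genes. In compound KO lenses 4 of 9 lay below control (*Bfsp1*, *Actn2*, *Sptbn1* and *Bfsp2*) and none above, beside 11.7% and 12.2%. In double KO against compound KO lenses 2 lay higher (*Actn2* and *Tmod1*) and none lower, beside 8.17% and 7.39%. The median log2 difference of the 9 members was −0.17 in double KO against control, where that of all genes was 0.01, and −0.53 in compound KO against control, where that of all genes was 0.02. Without compound KO replicate 1 the member median was −0.19 and that of all genes 0.01 in compound KO against control. In the same fit the same 4 members lay below control, beside 15.5% of all genes, none lay above, beside 16.1%, and *Bfsp1* and *Actn2* passed the looser rule, beside 3.68%. Against double KO lenses, without the same library, *Actn2* and *Tmod1* were again the 2 members that did not overlap. Both were higher in double KO lenses, beside 11.7% of all genes, and none was lower, beside 10.6%. The sum of the 9 members was 9678 to 11380 normalized CPM in control, 3760, 7613 and 8028 in compound KO and 7470 to 8422 in double KO libraries.

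**Figure D2:**
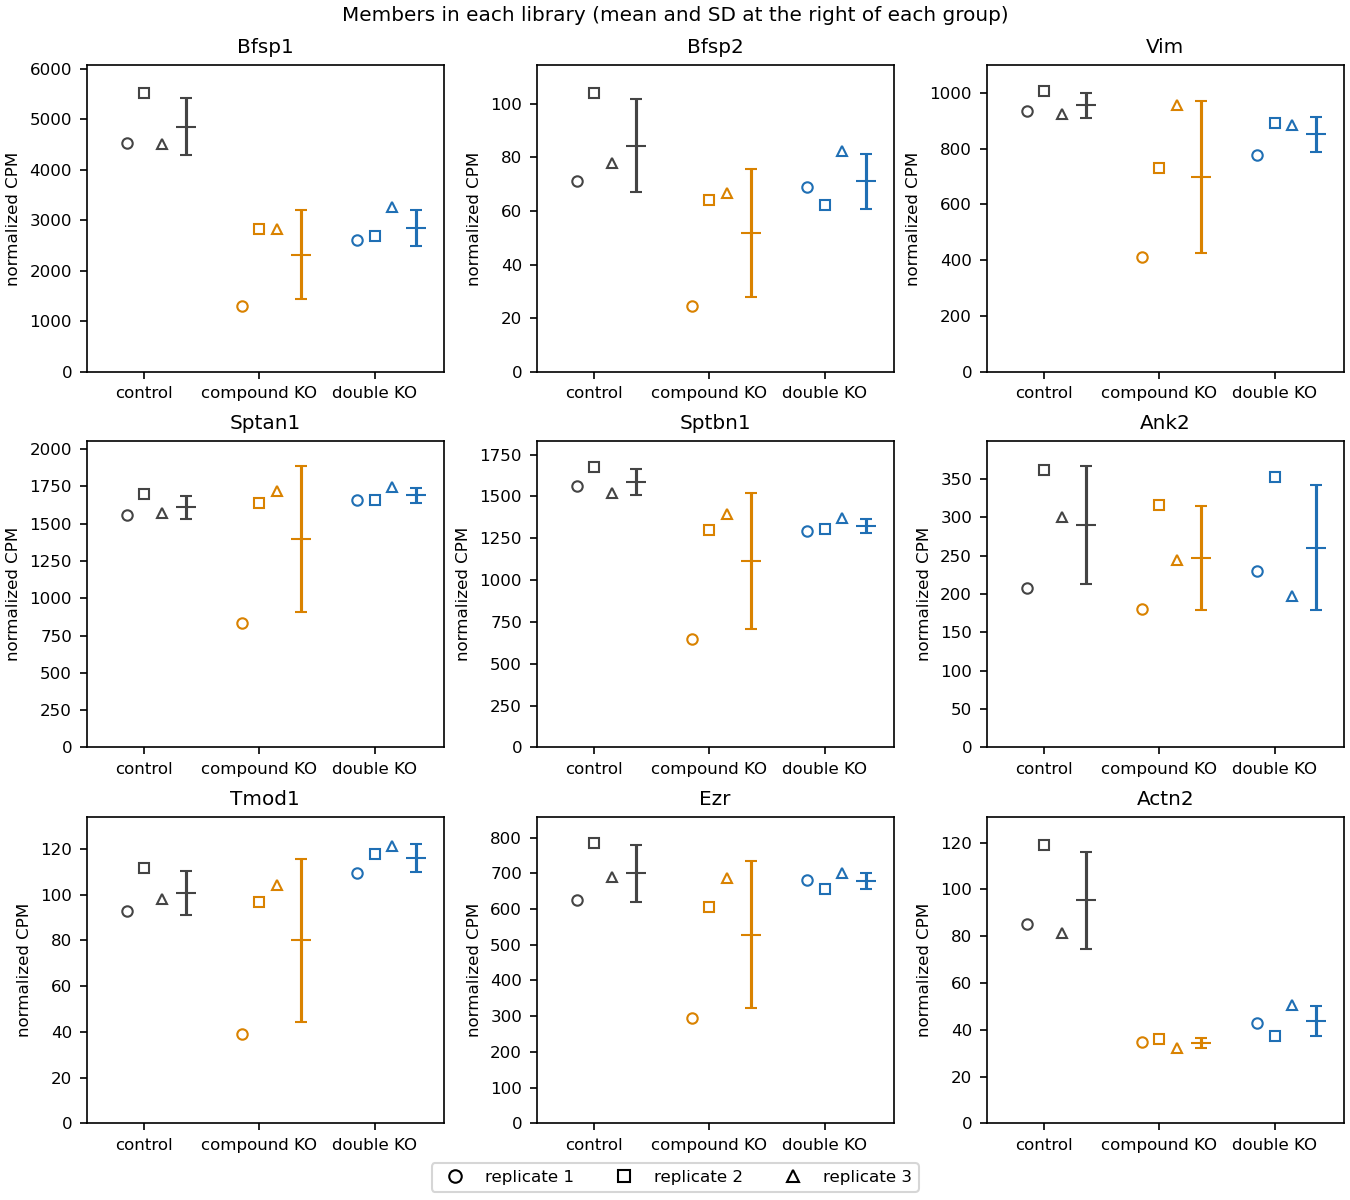
Normalized CPM (y axis, from 0) of the 9 members in each library by genotype (x axis), with 1 symbol per replicate and the mean and SD (n = 3) at the right of each group. *Bfsp1* and *Actn2* lie below all control libraries in each of the 6 knockout libraries, and compound KO replicate 1 is the lowest library for every member except *Actn2*.

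Filensin was the member with the highest level per kilobase of canonical transcript. *Bfsp1* was 4539, 5520 and 4519 normalized CPM in control libraries, 1292, 2830 and 2829 in compound KO and 2604, 2682 and 3267 in double KO. Every knockout library lay below every control library. The means were 4860 ± 572 (SD, n = 3) in control, 2317 ± 887 in compound KO and 2851 ± 362 in double KO lenses. In double KO against control the log2 difference was −0.77 (SE 0.13, 95% interval −1.08 to −0.46), with an unadjusted p of 0.00107 and an adjusted p of 0.131 in limma. With library totals as the only scaling, the log2 difference was −0.70 with an adjusted p of 0.0471 in limma, the only alternative that moved a member past the threshold. In compound KO against control it was −1.15 (SE 0.35, adjusted p = 0.481 in limma), and −0.77 without compound KO replicate 1 (adjusted p = 0.171 in limma). Without that library the double KO and compound KO lenses differed by 0.00 on the log2 scale.

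Phakinin, the partner of filensin, was closer to control. *Bfsp2* was 71.2, 104.0 and 77.8 normalized CPM in control libraries, 24.4, 64.1 and 66.8 in compound KO and 69.0, 62.1 and 82.3 in double KO. Double KO libraries overlapped with control, with a log2 difference of −0.23 (SE 0.17, 95% interval −0.66 to 0.20, adjusted p = 0.735 in limma). Compound KO libraries lay below control without overlap, at −0.80 (SE 0.42, adjusted p = 0.481 in limma), and at −0.34 without replicate 1. The 2 beaded filament subunits were therefore set against each other within each library, where the scaling of the library cancels. *Bfsp1* was 63.8, 53.1 and 58.1 times *Bfsp2* in control, 53.0, 44.1 and 42.3 times in compound KO and 37.7, 43.2 and 39.7 times in double KO libraries. Comparing geometric means, as for all ratios here, the ratio was 0.690-fold that of control in double KO lenses and 0.796-fold in compound KO lenses, or 0.744-fold without replicate 1. Neither knockout overlapped with control (exact permutation test, two-sided, p = 0.1 for each), although the gap between the lowest control library and compound KO replicate 1 was small. With 3 libraries against 3 this test cannot go below 0.1. Over the 8 ratio tests against control that were adjusted together, every adjusted p was 0.1.

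Vimentin differed less than filensin. *Vim* was 936.0, 1008 and 923 normalized CPM in control libraries, 411.5, 730.5 and 955 in compound KO and 777, 891.5 and 885 in double KO. The double KO libraries lay below control without overlap by a small margin, at a log2 difference of −0.17 (SE 0.07, 95% interval −0.35 to 0.01, adjusted p = 0.535 in limma). Compound KO libraries overlapped with control, at −0.53 (SE 0.31, adjusted p = 0.487 in limma) and at −0.19 without replicate 1. Within libraries *Bfsp1* was 4.85, 5.48 and 4.9 times *Vim* in control, 3.14, 3.87 and 2.96 times in compound KO and 3.35, 3.01 and 3.69 times in double KO. The ratio to vimentin was thus 0.652-fold in compound KO and 0.659-fold in double KO lenses, with no overlap with control in either (exact permutation test, p = 0.1 for each). Without compound KO replicate 1 it was 0.668-fold.

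The spectrin subunits lay at different distances from control. Alpha-spectrin, *Sptan1*, was 1558, 1696 and 1572 normalized CPM in control libraries, 834, 1636 and 1718 in compound KO and 1661, 1657 and 1748 in double KO. Its groups overlapped, with log2 differences of 0.07 (SE 0.05, 95% interval −0.06 to 0.21) in double KO and −0.28 (SE 0.30) in compound KO, where it was 0.06 without replicate 1. Beta-spectrin, *Sptbn1*, was 1564, 1675 and 1519 in control, 648, 1299 and 1393 in compound KO and 1295, 1305 and 1370 in double KO libraries. All 6 knockout libraries lay below the control libraries for beta-spectrin. The log2 difference was −0.26 (SE 0.06, 95% interval −0.40 to −0.12) in double KO lenses, short of the 1.5-fold limit, with an unadjusted p of 0.00399 and an adjusted p of 0.231 in limma. In compound KO lenses it was −0.59 (SE 0.31, adjusted p = 0.481 in limma), and −0.24 without replicate 1 (adjusted p = 0.352 in limma).

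The ratio of alpha- to beta-spectrin within a library had the smallest spread relative to its mean of the 4 ratios that were planned. It was 0.996, 1.01 and 1.04 in control, 1.29, 1.26 and 1.23 in compound KO and 1.28, 1.27 and 1.28 in double KO libraries. Compound KO replicate 1, the library that stands apart on cell type markers, was no exception here. The ratio was 1.26-fold that of control in double KO and 1.24-fold in compound KO lenses (1.23-fold without replicate 1), with no overlap (exact permutation test, p = 0.1 for each), and double KO and compound KO lenses overlapped with each other (exact permutation test, p = 0.5). Since each entry stands for a transcript that is not named, a shift among transcripts of *Sptan1* or *Sptbn1* was not tested.

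**Figure D3:**
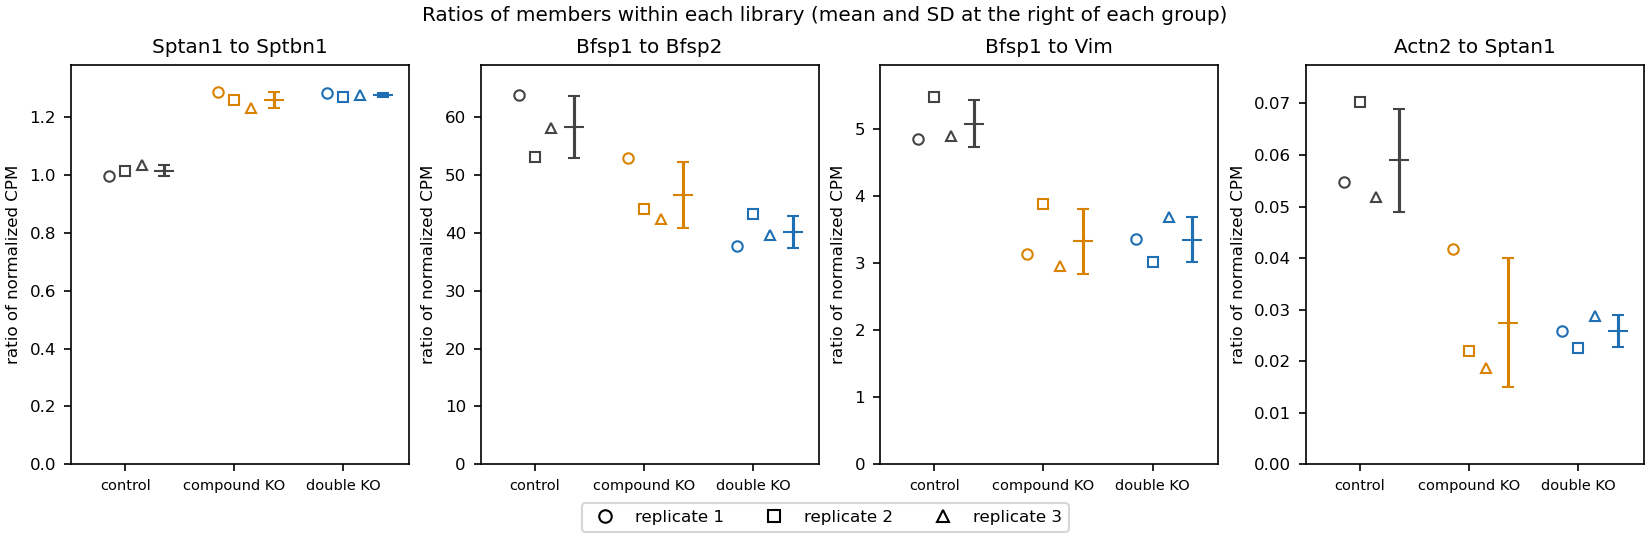
Ratios of normalized CPM between members within each library (y axes, from 0) by genotype (x axis), with 1 symbol per replicate and the mean and SD (n = 3) at the right of each group. *Sptan1* to *Sptbn1* is at most 1.04 in control and at least 1.23 in the knockout libraries, and the other 3 ratios are lower in every knockout library than in every control library.

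Ankyrin-B and tropomodulin 1, which bind the lattice to the membrane and cap its actin, did not pass the test against control. *Ank2* was 208.2, 361.5 and 300.4 normalized CPM in control libraries, 180.9, 316.2 and 243.9 in compound KO and 230.3, 352.5 and 198.0 in double KO. Its libraries overlapped in all comparisons, with a log2 difference of −0.16 (SE 0.29, 95% interval −0.88 to 0.55) in double KO, so that a difference of 1.5-fold downward lies within the interval. In compound KO it was −0.23 (SE 0.28), and −0.03 without replicate 1. *Tmod1* was 93.0, 111.6 and 98.1 in control, 39.2, 96.8 and 104.2 in compound KO and 109.3, 117.9 and 121.1 in double KO libraries. *Tmod1* overlapped with control in double KO lenses, with a log2 difference of 0.20 (SE 0.08, adjusted p = 0.507 in limma). In compound KO lenses it was −0.45 (SE 0.38), and 0.00 without replicate 1, with overlap. It was higher in double KO than in compound KO libraries without overlap, by 0.65 (SE 0.38, adjusted p = 0.665 in limma), and by 0.21 without compound KO replicate 1.

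Ezrin, the membrane linker, also overlapped between the genotypes. *Ezr* was 624.2, 784.5 and 690.2 normalized CPM in control libraries, 295.6, 604.6 and 685.6 in compound KO and 681.6, 655.0 and 699.5 in double KO. The log2 difference from control was −0.04 (SE 0.09, 95% interval −0.26 to 0.19) in double KO lenses and −0.49 (SE 0.33) in compound KO lenses, or −0.11 without replicate 1. Between double KO and compound KO lenses, *Ezr* and the 6 other members besides *Tmod1* and *Actn2* overlapped, with log2 differences of 0.07 to 0.57, and of −0.14 to 0.11 without compound KO replicate 1.

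Alpha-actinin 2, a crosslinker best known from the Z-disc of striated muscle, was the member with the largest log2 difference from control in both knockouts. *Actn2* was 85.2, 119.2 and 81.5 normalized CPM in control libraries, 34.8, 36 and 32.2 in compound KO and 43.1, 37.5 and 50.4 in double KO. The highest knockout library, at 50.4, lay below the lowest control library, at 81.5. The means were 95.3 ± 20.8 (SD, n = 3) in control, 34.3 ± 1.94 in compound KO and 43.7 ± 6.47 in double KO lenses. In double KO lenses the log2 difference was −1.10 (SE 0.18, 95% interval −1.54 to −0.65), with an adjusted p of 0.132 in limma. In compound KO lenses it was −1.43 (SE 0.16, 95% interval −1.83 to −1.03), with an adjusted p of 0.188, or −1.44 with an adjusted p of 0.154 without replicate 1, both in limma. It is the one member for which compound KO replicate 1 was not the lowest library. *Actn2* is on the list of differentially expressed genes that the study drew from these libraries, so its direction here is not independent evidence.

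Double KO lenses held more *Actn2* than compound KO lenses in every library, by 0.33 on the log2 scale (SE 0.13, unadjusted p = 0.0433, adjusted p = 0.665 in limma). Against *Sptan1* within each library, *Actn2* was 0.0547, 0.0703 and 0.0518 in control, 0.0417, 0.0220 and 0.0187 in compound KO and 0.0259, 0.0226 and 0.0288 in double KO. This ratio was 0.440-fold that of control in double KO and 0.442-fold in compound KO lenses (0.348-fold without replicate 1), without overlap (exact permutation test, p = 0.1 for each). Skeletal muscle markers summed to more in every knockout library than in any control library, as given above. *Actn2* was lower in each knockout library, and the part of muscle RNA in its values was not tested.

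**Figure D4:**
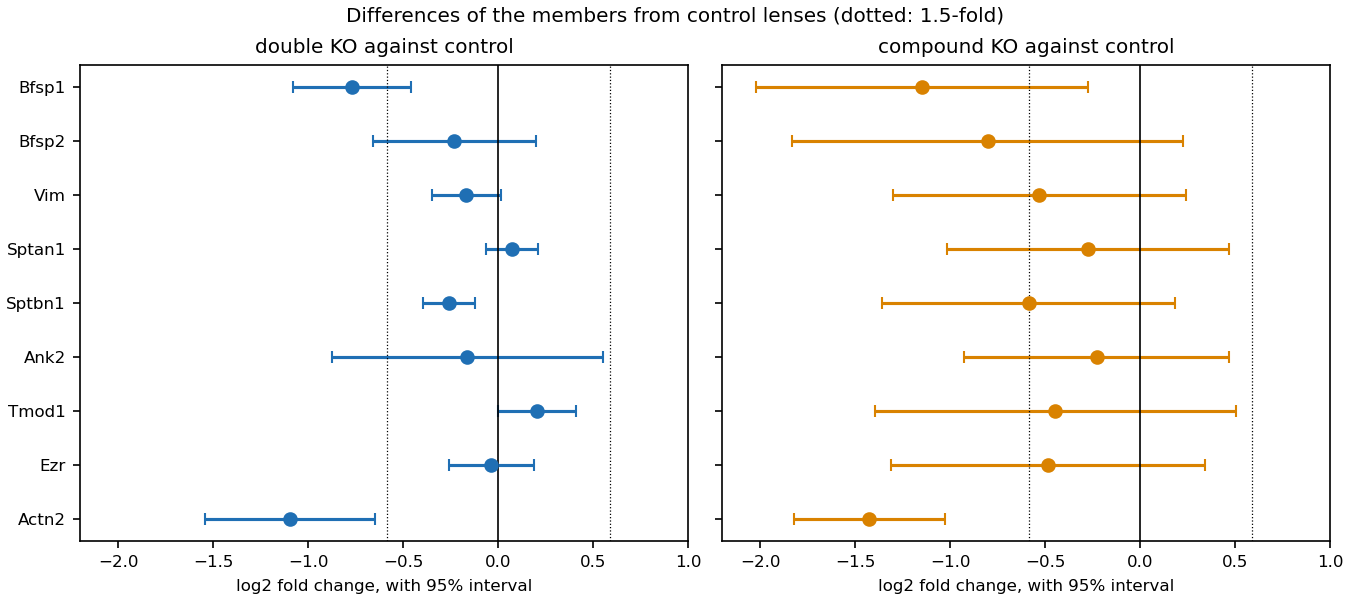
Log2 fold change of each member (points) with its 95% interval from limma (bars), for double KO against control at the left and compound KO against control at the right, all 3 libraries per group. The dotted lines mark 1.5-fold, and the intervals of *Bfsp1* and *Actn2* lie below 0 in both panels, as does that of *Sptbn1* in double KO lenses.

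The summed fiber cell markers differed between libraries, and *Bfsp1* and *Actn2* were also set against *Mip*, the water channel aquaporin 0 of fiber cells, a ratio chosen after the data had been seen. *Mip* itself was 8879 to 10197 normalized CPM in control, 3103, 8222 and 8497 in compound KO and 7835 to 8987 in double KO libraries. *Bfsp1* relative to *Mip* was 0.511, 0.541 and 0.479 in control, 0.417, 0.344 and 0.333 in compound KO and 0.332, 0.307 and 0.363 in double KO. The ratio was 0.654-fold that of control in double KO lenses and 0.712-fold in compound KO lenses (0.664-fold without replicate 1), without overlap (exact permutation test, p = 0.1 for each). *Actn2* relative to *Mip* was 0.515-fold that of control in double KO lenses, without overlap (exact permutation test, p = 0.1). In compound KO lenses the *Actn2* ratio was 0.577-fold and overlapped with control (exact permutation test, p = 0.3), with replicate 1 at 0.0112 inside the control range of 0.00863 to 0.0117 and the other libraries at 0.00438 and 0.00379. Without replicate 1 that ratio was 0.412-fold, without overlap.

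Levels were compared between genes only per kilobase of each gene's canonical transcript. In control lenses *Bfsp1* was highest at 2049 ± 241 normalized CPM per kb (SD, n = 3), followed by *Vim* at 436 ± 20.8. *Ezr* at 221 ± 25.5, *Sptan1* at 195 ± 9.25 and *Sptbn1* at 187 ± 9.48 came next. *Bfsp2* at 50.7 ± 10.4, *Tmod1* at 31.7 ± 3.02, *Ank2* at 23.4 ± 6.22 and *Actn2* at 14.8 ± 3.23 were lower. The mean ± SD of *Ezr* and *Sptan1*, of *Sptan1* and *Sptbn1*, of *Tmod1* and *Ank2*, and of *Ank2* and *Actn2* overlapped, while the other neighbours in this order were separate. The beaded filament subunits thus stood far apart per canonical length in this table. Which transcript each entry is cannot be read, so the length used may not be that of the transcript measured, for these or the other members. In double KO lenses *Bfsp1* was still the highest, at 1202 ± 153 per kb, and *Actn2* the lowest, at 6.80 ± 1.01. Since 6193 entries carry no symbol and hold 25.0% to 35.5% of a library's total, further transcripts of a member may lie among them.

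Other genes of the membrane skeleton were taken from 6 lists of 86 genes, of which 77 are in the table. The lists were chosen with earlier results of these data known. Their shares beside those of all genes are therefore a description and not independent evidence. None of those tested passed the adjusted test in any comparison. By the looser rule, without adjustment, 4 of 71 tested were higher and 5 lower in double KO against control (12.7%, beside 2.83% of all genes). In compound KO against control 1 was higher and 3 lower of 74 (5.41%, beside 5.34%), and in double KO against compound KO 0 and 2 of 74 (2.70%, beside 3.06%). Without compound KO replicate 1, 4 were higher and 5 lower of 70 in compound KO against control (12.9%, beside 3.68% of all genes). Medians of the lists in double KO against control ran from −0.16 to 0.08 on the log2 scale, beside 0.01 for all genes.

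In the spectrin-ankyrin list, *Epb4.1l2* and *Ank1* were lower in double KO lenses by the unadjusted rule. *Epb4.1l2*, a protein 4.1 that joins spectrin and actin, was 81.5, 133.7 and 89.5 normalized CPM in control, 9.2, 170.5 and 101.0 in compound KO and 27.2, 29.0 and 11.4 in double KO libraries. Its double KO libraries lay below control (log2 difference −2.19, SE 0.39, adjusted p = 0.162 in limma) while compound KO libraries spanned the control values. *Slc4a1*, the anion exchanger of the red cell membrane and itself one of the erythroid markers, was 1.6, 1.4 and 2.2 in control and 3.4, 9.4 and 4.8 in double KO libraries. The sum of erythroid markers was higher in each double KO library as well, and its part in this value was not tested. *Sptb*, the erythrocyte beta-spectrin, differed by −0.15 (SE 0.08) in double KO lenses, below control without overlap. *Ank3*, ankyrin-G, differed by −0.17 (SE 0.18), with overlap. *Ank1*, at most 5.6 in any library, was 5.3, 5.6 and 3.2 in control and 2.0, 1.3 and 3.4 in double KO. Its double KO libraries thus overlapped with control (log2 difference −0.84, SE 0.30, adjusted p = 0.444 in limma).

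The cytoplasmic actins overlapped with control in double KO lenses. *Actb* was 476 to 525 normalized CPM in control and 467 to 519 in double KO libraries, and *Actg1* 479 to 516 and 480 to 557. Below 1.5-fold in double KO lenses, and chosen after their values were seen, *Actn1* and *Tpm1* did not overlap with control in either knockout. *Actn1*, a non-muscle paralog of *Actn2*, was 69.8, 77.6 and 71.4 in control, 45.7, 58.0 and 61.3 in compound KO and 57.5, 56.7 and 60.6 in double KO libraries. Its log2 difference was −0.32 in double KO (SE 0.06, adjusted p = 0.183 in limma) and −0.41 in compound KO lenses, or −0.28 without replicate 1. *Tpm1*, a tropomyosin that lies along actin filaments, was 35.4, 31.7 and 30.9 in control, 64.6, 43.6 and 42.0 in compound KO and 40.3, 48.5 and 49.9 in double KO. Its log2 difference was 0.48 in double KO (SE 0.10, adjusted p = 0.231 in limma) and 0.58 in compound KO lenses, or 0.38 without replicate 1. None of 11 tested genes of the actin filament list, and none of the 5 ERM genes, passed the unadjusted rule in double KO lenses. The share of all genes was 2.83%, and lists this short cannot tell such counts from that share. In the ERM list *Slc9a3r1*, a scaffold that binds ezrin, was 6.3, 3.4 and 3.8 in control and 11.8, 8.0 and 7.2 in compound KO libraries. *Rdx*, radixin, differed from control by −0.08 (SE 0.05) in double KO lenses, with overlap. In compound KO lenses *Rdx* lay below control without overlap, at −0.15 (SE 0.06), or −0.14 without replicate 1. *Nf2* overlapped with control in both knockouts. Filamin C, *Flnc*, was 0.9, 0.6 and 0.4 in control, 34.0, 2.9 and 1.4 in compound KO and 6.4, 1.3 and 2.0 in double KO libraries. Desmin, *Des*, the intermediate filament of muscle, ran from 0.3 to 0.6 in control, and was 21.0, 2.3 and 0.9 in compound KO and 5.9, 1.2 and 1.6 in double KO. Both were highest in compound KO replicate 1, where the muscle marker sum was also highest, and the part of muscle RNA was not tested. *Flna* was 151 to 202 in control and 195 to 223 in double KO libraries, and *Fscn1* 145 to 170 and 135 to 153.

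*Synm*, synemin, an intermediate filament protein that assembles with vimentin, was 451.9, 497.1 and 464.3 normalized CPM in control, 154.4, 367.8 and 392.5 in compound KO and 384.4, 378.0 and 389.6 in double KO libraries. All 6 knockout libraries lay below control. The log2 difference in double KO lenses was −0.29 (SE 0.05, adjusted p = 0.138 in limma), under 1.5-fold. The plakin *Macf1* overlapped with control in double KO lenses, at 152.0 to 216.5 in control and 133.4 to 217.2 in double KO libraries. Its compound KO libraries, at 217.8, 241.9 and 242.9, lay above control, the lowest by a small margin.

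Of the membrane anchors, calpains and filament chaperones, *Capn3*, *Nrcam* and *Cryab* were lower by the unadjusted rule in both knockouts, and in compound KO also without replicate 1. *Capn3*, a calcium-dependent protease with lens-specific forms, was 4172, 5974 and 3628 normalized CPM in control, 832, 1588 and 2189 in compound KO and 1626, 2483 and 1834 in double KO libraries, a log2 difference of −1.20 (SE 0.24, adjusted p = 0.205 in limma) in double KO. *Nrcam*, a cell adhesion molecule that binds ankyrin, was 131.7, 114.6 and 61.0 in control and 32.8, 43.3 and 56.9 in double KO libraries (log2 difference −1.15, SE 0.34, adjusted p = 0.364 in limma). *Cryab*, a small heat shock protein that binds intermediate filaments, was 2534, 2546 and 3191 in control, 791, 1124 and 1665 in compound KO and 1571, 1649 and 1869 in double KO (−0.70, SE 0.12, adjusted p = 0.143 in limma). These genes thus lay below control in the same libraries as *Bfsp1* and *Actn2*. *Lim2*, a fiber cell membrane protein, differed by −0.09 (SE 0.09) in double KO lenses and *Mip* by −0.16 (SE 0.09), both with overlap. *Capn3*, *Nrcam*, *Slc4a1*, *Epb4.1l2* and *Flnc* are also on the study's own list, drawn from these libraries.

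**Figure D5:**
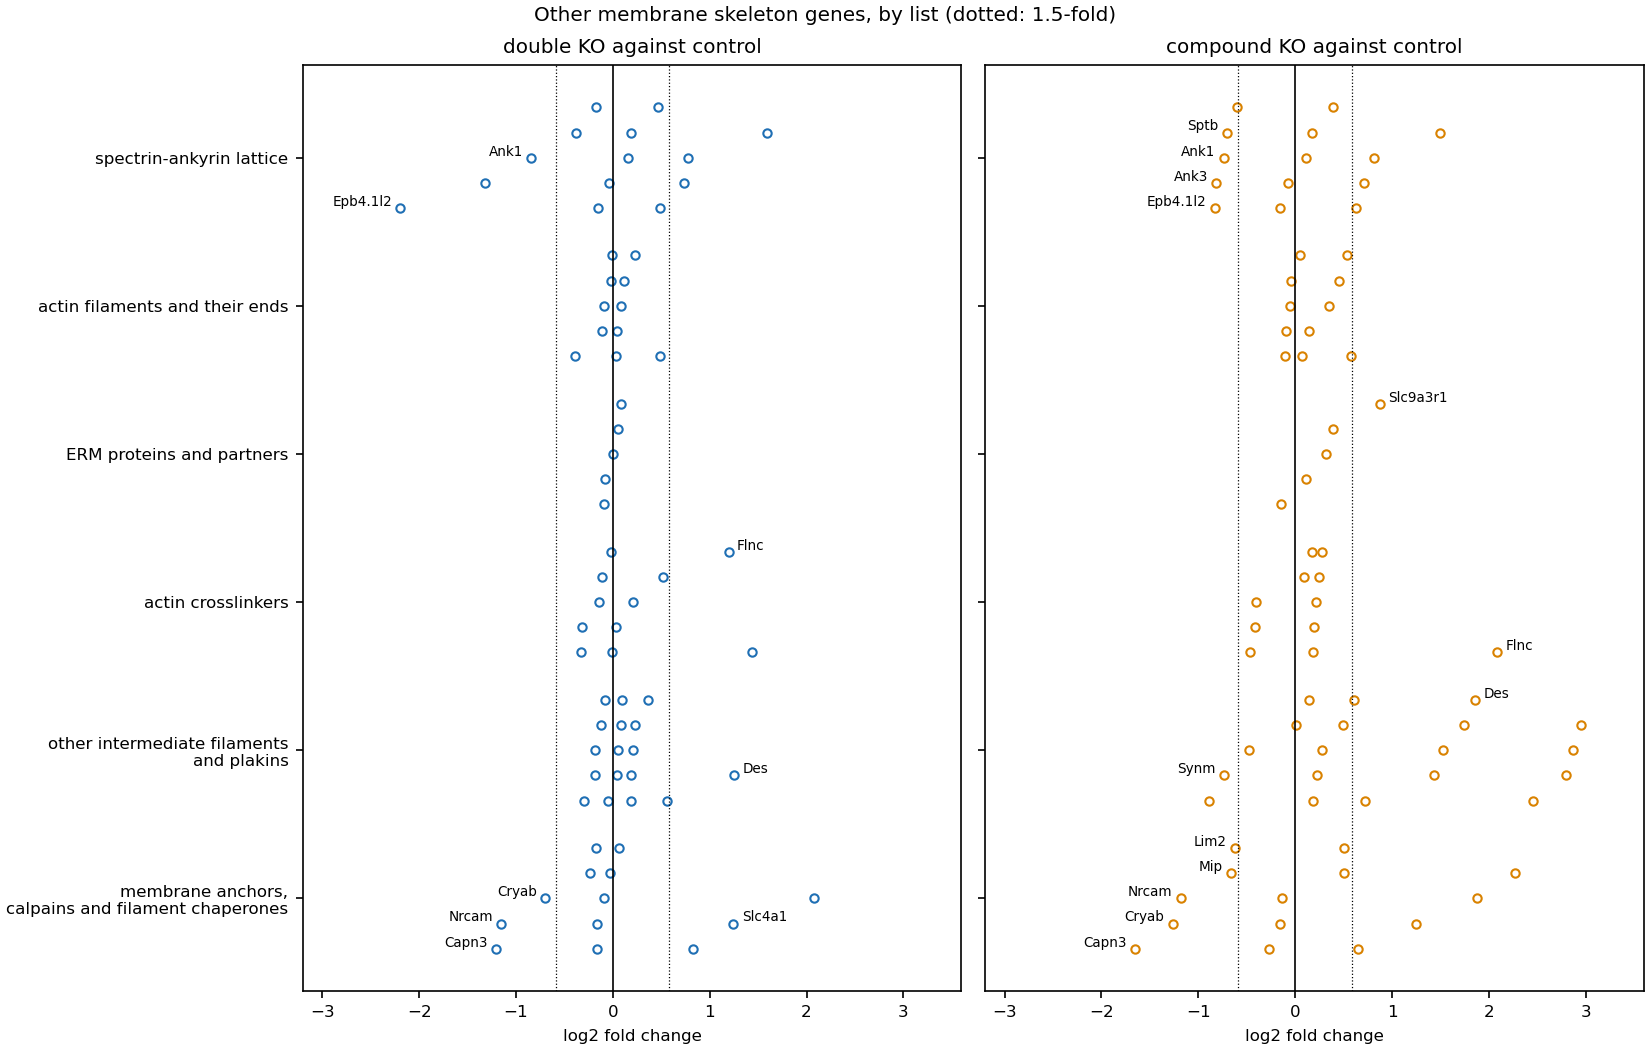
Log2 fold change (x axis) of each tested gene of the 6 lists (y axis, points spread vertically for visibility), for double KO against control at the left and compound KO against control at the right. Genes named in the text beyond 1.5-fold (dotted lines) are labelled, and none of the points passed the adjusted test.

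The genes whose log2 values ran most like those of a member over the 9 libraries were looked up among 8149 genes with a mean of at least 10. They are a description, since the low values of compound KO replicate 1 are shared by many genes. For *Bfsp1* they were *Eno3*, *Cpt2* and *Optn*, with Pearson's r of 0.990, 0.989 and 0.988. For *Bfsp2* they were *Epha2*, *Crybb1* and *Pak4*, with r of 0.995, 0.992 and 0.990. *Actn2* ran most like *Dnmt3a*, *Ubfd1* and *Sord*, with r of 0.975, 0.945 and 0.942. *Dnmt3a*, a DNA methyltransferase, was 65.2, 80.7 and 64.9 normalized CPM in control, 35.8, 39.7 and 42.8 in compound KO and 45.7, 42.7 and 46.6 in double KO libraries. *Dnmt3a* and *Optn* are on the study's list as well.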

How the data were processed

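RNA of E16.5 mouse lenses was sequenced in 9 libraries, grouped by genotype as labelled. The authors deposited a normalized signal, CPM with 1 composition factor per library. The submitters' processing notes name Trimmomatic, HISAT2, Cufflinks, StringTie, edgeR and mm39, with versions not given in the sources used here. Read counts are not used here and depth is unknown. The plan named limma for normalized values. limma 3.58.1 in R 4.3.3, with an intensity trend, was run on log2(value + 1), 1 fit per comparison, for symbols that reached 1 in 2 or more of its 6 libraries. Fold changes are on this scale, which understates changes of low genes. Genes were called at a two-sided Benjamini-Hochberg adjusted p of at most 0.05 and 1.5-fold. The fit was tested on simulated data. Ratios were compared by exact permutation over all 20 groupings. Replicate numbers were not used as pairs, since deviations of libraries with the same number correlated by −0.106 to 0.216. Members and lists were chosen with earlier results of these data known. Genes named from the lists were those past the unadjusted rule in a knockout against control and the 2 with the highest mean per list, apart from a result that is not reported here. Counts without compound KO replicate 1 and the ratios to *Mip* were chosen after seeing the data. Alternatives were other scalings, filters and pseudocount, a fit of all 9 libraries, the replicate block, summed symbols, no fold limit, and each library left out. Positions are from GENCODE M39 and promoters from RefSeq. Python 3.11.15, pandas 2.3.3, scipy 1.17.1 and matplotlib 3.10.9 were used.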

Additional observations from a re-analysis of the deposited data

How the results depend on the processing

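Of 378 alternative values of the members' log2 differences, 367 kept their direction and side of the threshold, 1 passed the threshold and 10 changed direction. The members called in double KO against control numbered 1 with library totals as the only scaling (*Bfsp1*) and 0 otherwise. That scaling moved the median of all genes by 0.06 in double KO against control, 0.23 in compound KO against control and −0.17 in double KO against compound KO, and under it *Ezr* was 0.0322, *Ank2* 0.0250 and *Ank2* −0.118 in these comparisons. With libraries left out in turn, double KO against control ran from −0.404 to 0.0131 for *Ank2* and from −0.117 to 0.0477 for *Ezr*. Compound KO against control ran from −0.461 to 0.0605 for *Sptan1*, and double KO against compound KO from −0.172 to 0.264 for *Ank2* (−0.137 without compound KO replicate 1) and from −0.0239 to 0.528 for *Sptbn1*. *Ank2* in double KO against control was 0.0109 without double KO replicate 3 and 0.0131 without control replicate 2. None of these passed the test, and the cause was not tested. For *Bfsp1* and *Actn2* the left-out values in double KO against control ran from −0.87 to −0.68 and from −1.20 to −0.93, with adjusted p from 0.140 to 0.320 and from 0.152 to 0.297 in limma. In one fit of all 9 libraries the adjusted p of *Actn2* was 0.0760 in double KO and 0.0625 in compound KO. Over all genes, 51 calls in double KO against control became 21 in that fit and 22 to 47 with a library left out, while compound KO against control went from 0 to 13 without compound KO replicate 1. With the replicate number as a block, members called stayed at 0 in each comparison, and all calls in double KO against control were 10 in place of 51. The numbers are not known to pair the libraries. Of the other counts and ratios 128 were kept and 1, named above, moved. A count was kept if its size stayed within the limits set, and a ratio if its direction held, whatever its size. The *Actn2* to *Mip* ratio in compound KO against control was thus kept, at 0.577-fold with all libraries and 0.412-fold without compound KO replicate 1. Unknown depth limits what can be said of low values such as *Flnc*, *Des* and *Ank1*, and 3 libraries a group limit every test.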
